A study of Mus musculus with 12 samples.

Results

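The 45 genes described here encode the machinery that copies DNA and makes its building blocks. They were taken from a list of gene symbols, drawn up with earlier results of these data known, and were matched through Ensembl identifiers in a table of 55487 genes. All 45 were found, and all 45 passed the filter on low counts. By role, 11 license replication origins (Orc1, Orc2, Orc6, Cdc6, Cdt1 and Mcm2 to Mcm7) and 7 activate the helicase (Cdc45, Gins1 to Gins4, Mcm10 and Ticrr). The sliding clamp and its loader account for 6 genes (Pcna and Rfc1 to Rfc5), and DNA polymerases with primase for 8 (Pola1, Pola2, Prim1, Prim2, Pold1, Pold2, Pole and Pole2). Fen1 and Lig1 join Okazaki fragments, Rpa1 to Rpa3 coat single-stranded DNA, Chaf1a and Chaf1b deposit histones on new DNA, and Ccne1 and Ccne2 are the cyclins E. The remaining 4, Rrm1, Rrm2, Tyms and Tk1, make deoxynucleotides.

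Before S phase, the origin recognition complex, Cdc6 and Cdt1 load the MCM2 to MCM7 ring onto DNA in an inactive form. Cyclin-dependent kinases then recruit Cdc45 and GINS, which turn the ring into the working helicase, and polymerases held by the PCNA clamp copy both strands. Transcription of many of these genes is switched on at the G1/S boundary by E2F factors, which the retinoblastoma family of pocket proteins holds in check. Cells of the early mouse epiblast are known for rapid cycles with a short G1 phase, and neurons leave the cell cycle for good.

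RNA was sequenced in bulk from mouse epiblast stem cells, pluripotent cells that resemble the epiblast of the implanted embryo. They were grown in serum as embryoid bodies, floating aggregates in which such cells differentiate. Cells of all 4 groups carried FLAG-Mixl1, a tagged copy of a homeobox transcription factor gene of the primitive streak, that doxycycline switches on. The groups, of 3 libraries each, were D1Dox_d2 (doxycycline at 1 µg/mL, collected on day 2), NoDox_d2 (no doxycycline, day 2), D3Dox_d4 (doxycycline at 1 µg/mL, day 4) and NoDox_d4 (no doxycycline, day 4). The labels do not say what the number after the D stands for, whether the line was 1 clone or whether replicates came from separate cultures. The p-values therefore measure the spread between these libraries, which may be technical. Since no line lacking the transgene was treated, the drug and Mixl1 cannot be told apart.

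Total counts per library ran from 24100487 to 28020036. Levels are given as CPM, a gene's counts scaled to library size with TMM factors. Mixl1 was at 362 to 392 CPM in D1Dox_d2, against 91.0, 0.593 and 1.15 CPM in NoDox_d2, and at 417 to 478 CPM in D3Dox_d4, against 1.11 to 1.83 CPM in NoDox_d4. The library labelled NoDox_d2 replicate 1 therefore held more Mixl1 RNA than the other libraries without doxycycline. The NoDox libraries numbered 1 stood apart in both groups: across genes, their log2 CPM correlated with those of their group at r = 0.957 to 0.961, against 0.990 and 0.991 between the other libraries of each NoDox group. Counts of calls are therefore also given without these libraries. All 12 epiblast markers of a list were tested. Their summed level was 1167, 1137 and 1069 CPM in D1Dox_d2, against 1703, 1681 and 1838 CPM in NoDox_d2. On day 4 it was 767, 704 and 673 CPM in D3Dox_d4, against 629.9, 1193 and 1103 CPM in NoDox_d4. Single markers went different ways. From NoDox_d2 to D3Dox_d4 the mean of Pou5f1 went from 472 to 64.5 CPM, and that of Nanog from 222 to 15.0 CPM. Means of Sox2 went from 214 to 270 CPM and of Fgf15 from 57.7 to 133 CPM, the largest parts of the D3Dox_d4 sum. The sum alone therefore does not show an epiblast state. In 9 members, over 10% of exon bases lie opposite an exon of another gene: Fen1 (84.2%), Gins2 (67.3%), Chaf1a (52.5%), Orc2, Ccne2, Rfc2, Rfc4, Orc1 and Rfc5. Strand was not used in counting, so it cannot tell reads of these stretches from those of the partner. Whether such reads were counted for the member or left out was not checked, so these levels may be too high or too low. Fen1, the flap nuclease, was counted at 2.63 to 6.64 CPM in any library, a level that its overlap leaves uncertain.

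Promoters of the members are shown because the genes moved largely together and because E2F words can be read directly from them. RefSeq windows of build GRCm38.p6, running from 250 bases before to 50 bases after the annotated start, were matched by symbol for 37 of the 45 members. The words searched were TTTCCCGC, TTTCGCGC, TTTGCCGC and TTTGGCGC, on both strands, with overlapping matches merged. At least 1 word stood in the windows of 13 of 37 members (35.1%), against 704 of 27025 genes of all kinds (2.6%). These were Orc1, Cdc6, Cdt1, Mcm3, Mcm5, Mcm6, Mcm7, Gins3, Rfc3, Pola1, Pold1, Pole2 and Lig1. The letters CCAAT were found in 24 of the 37 members (64.9%), against 41.1% of all genes. Base composition differed too, with a median of 58.3% G and C in members' windows, against 52.7% in all windows. Of the 28 members with a window that fell on day 4 in the comparison described further on, 12 held an E2F word, against 1 of the 9 that did not pass the test. On day 2, 10 of 17 members that fell held a word, against 3 of 19 that did not pass, and Tk1, which rose, held none. A match describes letters and does not show binding. Among members that fell on day 4, the windows of Mcm5 and Pola1, which hold a word, and of Tyms, which holds none (nor does that of Rfc5), follow 5′ to 3′ on the coding strand, with E2F words in capitals.
Mcm5, chr8:75109259-75109558, plus strand: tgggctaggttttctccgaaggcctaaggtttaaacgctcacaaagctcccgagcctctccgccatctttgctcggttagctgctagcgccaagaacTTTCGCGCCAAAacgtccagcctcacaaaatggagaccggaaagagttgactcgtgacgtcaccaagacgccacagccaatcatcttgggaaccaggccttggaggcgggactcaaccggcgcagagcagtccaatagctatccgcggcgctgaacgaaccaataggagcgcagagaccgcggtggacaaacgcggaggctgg
Pola1, chrX:93632106-93632405, minus strand: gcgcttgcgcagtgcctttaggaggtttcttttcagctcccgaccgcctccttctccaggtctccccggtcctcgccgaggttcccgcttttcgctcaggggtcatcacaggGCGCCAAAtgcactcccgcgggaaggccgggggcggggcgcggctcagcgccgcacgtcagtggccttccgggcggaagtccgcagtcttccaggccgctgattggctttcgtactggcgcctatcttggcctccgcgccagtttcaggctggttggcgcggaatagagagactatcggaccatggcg
Tyms, chr5:30073576-30073875, minus strand: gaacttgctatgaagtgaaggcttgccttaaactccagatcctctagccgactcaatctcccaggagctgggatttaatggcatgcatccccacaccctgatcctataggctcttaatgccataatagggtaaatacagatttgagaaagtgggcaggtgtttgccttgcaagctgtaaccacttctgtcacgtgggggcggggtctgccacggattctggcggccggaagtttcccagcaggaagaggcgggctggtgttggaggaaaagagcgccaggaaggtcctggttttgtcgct
In Mcm5 the capitals hold overlapping words of both strands and end 141 bases before the start. In Pola1 the word lies on the opposite strand and ends 130 bases before the start.

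Summed over all 45 genes, the level was 5382, 5511 and 4967 CPM in D1Dox_d2, against 6249, 6448 and 6719 CPM in NoDox_d2. On day 4 it was 4432, 4184 and 4268 CPM in D3Dox_d4, against 6953, 6171 and 6003 CPM in NoDox_d4. Groups with and without doxycycline did not overlap on either day, and the mean sum in doxycycline was 81.7% of that without it on day 2 and 67.4% on day 4. In bulk RNA, fewer cells that express these genes and less of their RNA per cell cannot be told apart. Between genes, levels are compared per kilobase of exon. The 6 MCM genes, whose products form a ring with 1 copy of each, are compared this way: in D3Dox_d4 their means ran from 39.2 ± 1.98 CPM per kb for Mcm2 to 65.4 ± 0.585 CPM per kb for Mcm6, and in NoDox_d4 from 58.5 ± 2.96 for Mcm2 to 105 ± 3.799 for Mcm3 (SD, n = 3). Mcm2 was the lowest of the 6 in all groups. That rank rests on its annotated exon length of 6956 bases, against 3589 to 4666 for the other MCM genes. In plain CPM the NoDox_d4 mean of Mcm2 (407) was above those of Mcm3 (393) and Mcm4 (267). The length of the transcripts expressed was not measured. Mcm3 and Mcm6 did not differ beyond their spread in NoDox_d4.

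**Figure D1:**
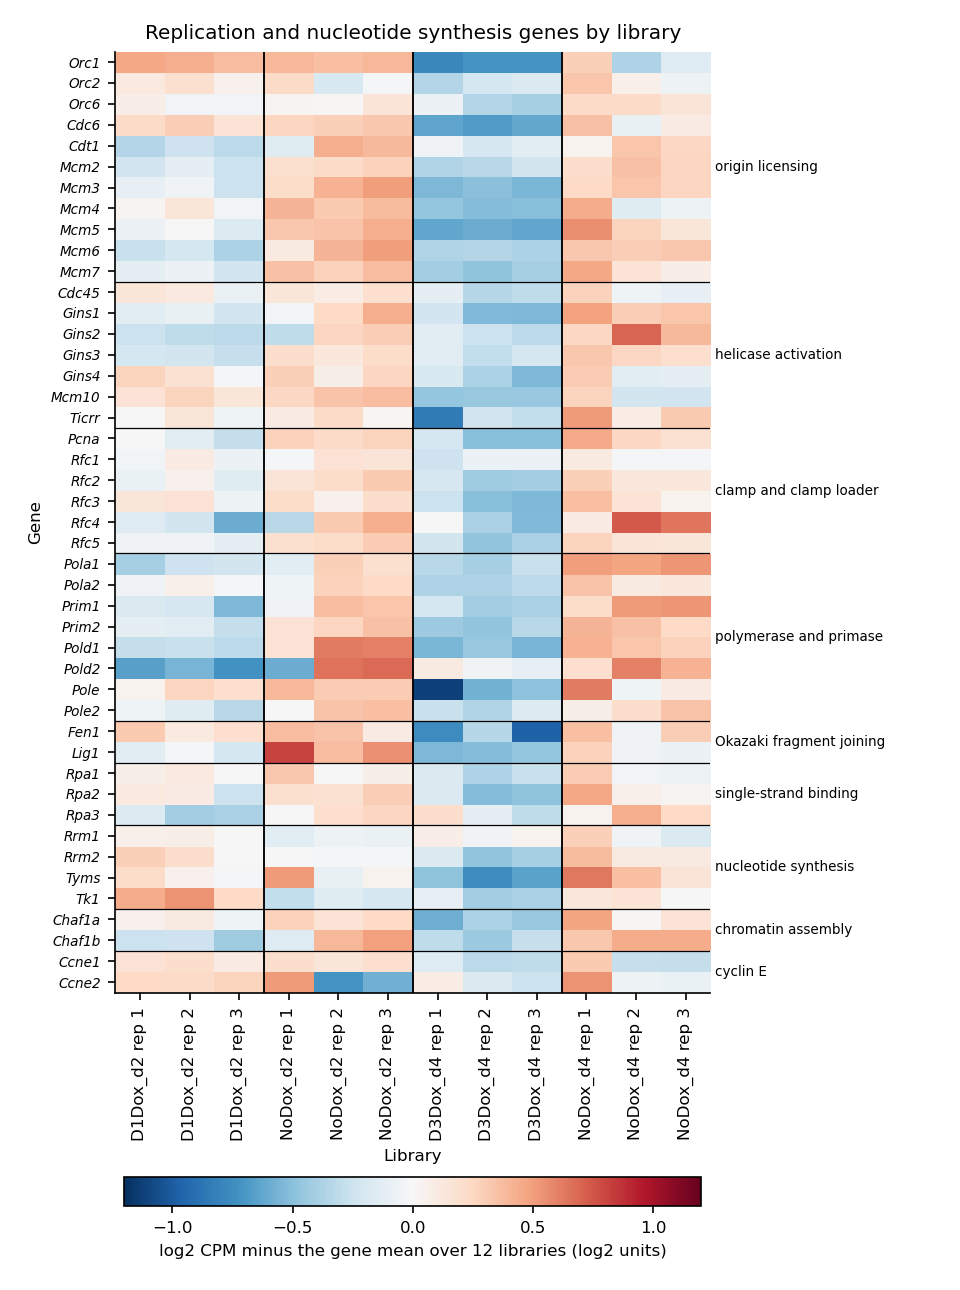
Level of the 45 genes (rows, grouped by role) in the 12 libraries (columns), as log2 CPM minus the gene's mean over all libraries, from -1.12 (blue) to 0.81 (red). The D3Dox_d4 columns are mostly blue, both NoDox groups are mostly red, and the NoDox libraries numbered 1 differ from their groups in genes such as Ccne2 and Pold2.

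**Figure D2:**
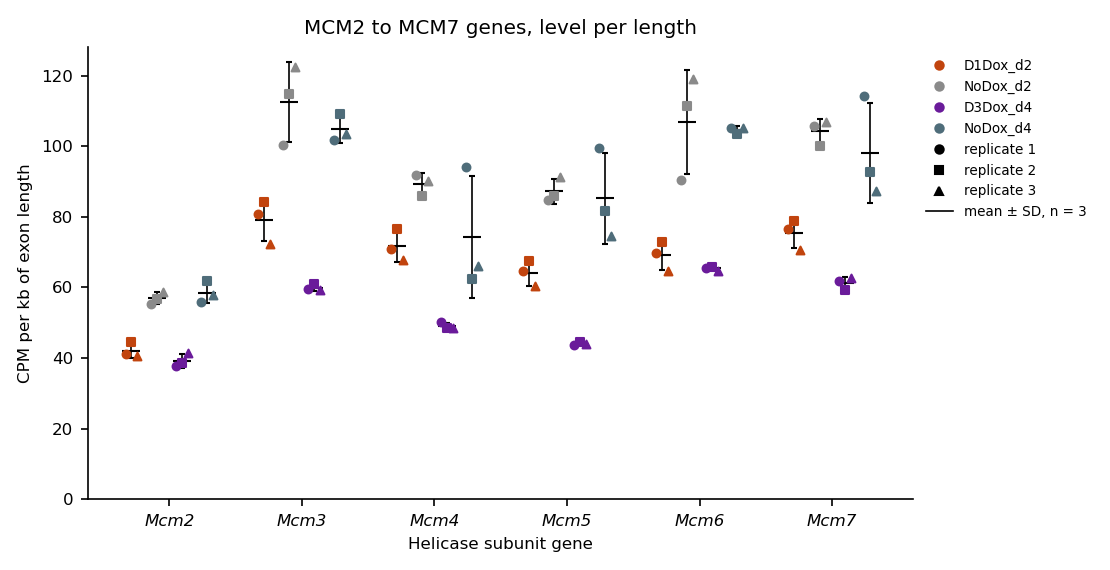
CPM per kb of exon length (vertical axis) of Mcm2 to Mcm7 in each library, by group, with bars for mean ± SD of 3 libraries. For all 6 genes the D3Dox_d4 points lie under all NoDox_d4 points.

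On day 2, 19 of the 45 members fell in D1Dox_d2 relative to NoDox_d2, 1 rose and 25 did not pass the test. The edgeR quasi-likelihood test with Benjamini-Hochberg adjustment over 18109 genes was used, at an adjusted p under 0.05. Of members, 42.2% fell and 2.22% rose, against 13.4% and 14.9% of all genes tested. Their median log2 fold change was -0.28, against -0.03 over all genes. Groups did not overlap, with doxycycline lower, for 23 members (22.1% of all genes did so). They did not overlap, with doxycycline higher, for 3 members (23.9% of all genes). Of all genes, 28.4% were called in either direction. Leaving out 1 library moved the count of fallen members to 11 when that was D1Dox_d2 replicate 3, to 10 for NoDox_d2 replicate 2 and to 9 for NoDox_d2 replicate 3. Over all fits that left out 1 library, 1197 to 3650 of all genes fell, against 2431 with all libraries. Mcm2, Mcm3, Mcm5, Mcm6, Mcm7, Prim2, Pold1, Lig1 and Tk1 kept their calls in all 21 alternatives. The calls of Pcna, Rfc2, Rfc5, Pola1, Prim1, Pole2 and Rpa3 were each lost without NoDox_d2 replicate 2, without replicate 3 of that group, and without at least 1 library of D1Dox_d2. Leaving out both NoDox libraries numbered 1 gave 24 that fell (53.3%, against 26.4% of all genes tested in that fit) and 2 that rose (4.44%, against 26.8%), Tk1 and Ccne2, the cyclin E gene whose log2 fold change was 0.40 ± 0.28 with all libraries and 0.88 without them. Fibroblast markers moved with these changes (10 of 13 rose), and their part was not tested.

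Of the 11 licensing genes, 6 fell on day 2 (54.5%, against 13.4% of all genes). In the MCM ring, 5 of 6 subunits fell, with log2 fold changes from -0.63 (Mcm6) to -0.44 (Mcm2), and the sixth, Mcm4, was at -0.32 ± 0.13 (adjusted p = 0.0977). Mcm6 had 326, 339.9 and 302 CPM in D1Dox_d2, against 422, 520.1 and 555 CPM in NoDox_d2. All 3 treated libraries lay under all untreated ones, and the change was -0.63 ± 0.10 in log2 units (SE, adjusted p = 0.00104 by edgeR). Cdt1, which brings the ring to the origin, also fell (-0.55 ± 0.14, adjusted p = 0.0132), a call lost without NoDox_d2 replicate 2 or 3. Its partner Cdc6 did not pass (-0.06 ± 0.11), nor did Orc1, Orc2 or Orc6, whose log2 fold changes lay between -0.063 and 0.10.

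Of the 7 helicase activation genes, only Gins3, a GINS subunit, fell on day 2 (14.3%, near the 13.4% of all genes). It had 20.1, 20.1 and 19.2 CPM in D1Dox_d2, against 26.9, 25.5 and 27.2 CPM in NoDox_d2. Its groups were apart and its log2 fold change was -0.42 ± 0.10 (adjusted p = 0.00817), a call lost with no filter on low counts. Gins1 (-0.38 ± 0.13) and Gins2 (-0.40 ± 0.16) did not pass, and passed without the NoDox libraries numbered 1. Cdc45, Gins4, Mcm10 and Ticrr, the activator that carries Cdc45 to the origin, were between -0.13 and -0.056. At the clamp, Pcna (-0.39), Rfc2 (-0.28) and Rfc5 (-0.30) fell, each losing its call when single day 2 libraries were left out, while Rfc1 (-0.11), Rfc3 (-0.071) and Rfc4 (-0.49) did not pass.

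Polymerase and primase genes fell in 6 of 8 cases on day 2 (75%, against 13.4% of all genes). Pold1, the catalytic subunit of polymerase delta, had 73.98, 74.9 and 72.3 CPM in D1Dox_d2, against 101, 139 and 137 CPM in NoDox_d2. The groups were apart, the mean was 58.7% of that without doxycycline, and the log2 fold change was -0.77 ± 0.11 (edgeR adjusted p = 5.91e-04). Pold2, the accessory subunit, had 34.8, 37.1 and 32.9 CPM in D1Dox_d2, against 36.2, 85.5 and 87.5 CPM in NoDox_d2. Here NoDox_d2 replicate 1 lay among the treated libraries. The log2 fold change was -0.996 ± 0.26 (adjusted p = 0.015), and it was -1.32 without that library. Leaving out D1Dox_d2 replicate 3 or NoDox_d2 replicate 2 (or 3) ended the call. Pola1 (-0.41), the catalytic subunit of polymerase alpha, both primase genes Prim1 (-0.53) and Prim2 (-0.44), and Pole2 (-0.42) fell as well. Pola2 (-0.16) and Pole (-0.17), the catalytic subunit of polymerase epsilon, did not pass.

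Lig1, the ligase that seals Okazaki fragments, had 187, 201 and 177 CPM in D1Dox_d2, against 359, 264 and 300.2 CPM in NoDox_d2. The groups were apart and it fell, with a log2 fold change of -0.71 ± 0.13 (edgeR adjusted p = 0.00182). Chaf1b, the middle subunit of the histone chaperone CAF-1, had 63.2, 63.8 and 56.2 CPM in D1Dox_d2, against 68.1, 99.8 and 106 CPM in NoDox_d2. That gene fell too (-0.58 ± 0.14, adjusted p = 0.0117), a call lost without D1Dox_d2 replicate 3 (or NoDox_d2 replicate 3), when its adjusted p rose to at most 0.0554. Rpa3 fell (-0.47), whereas Fen1 (-0.066), Rpa1 (-0.073), Rpa2 (-0.23), Chaf1a (-0.19), Ccne1 (-0.025) and Ccne2 (0.40) did not pass.

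Of the 4 nucleotide synthesis genes, Tk1 rose on day 2 and the other 3 did not pass. Tk1, thymidine kinase of the salvage pathway, had 62.8, 67.0 and 54.5 CPM in D1Dox_d2, against 37.6, 41.8 and 40.2 CPM in NoDox_d2. Every treated library was above every untreated one, and Tk1 rose by 0.62 ± 0.12 on the log2 scale (edgeR adjusted p = 0.00247). It was the only member that rose. Rrm2 (0.19) and Rrm1 (0.14), the subunits of ribonucleotide reductase, did not pass, although their groups did not overlap, with doxycycline higher. Tyms, thymidylate synthase, was at -0.089 ± 0.16 with overlapping groups.

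On day 4, 34 of the 45 members fell in D3Dox_d4 relative to NoDox_d4, 0 rose and 11 did not pass the same test. Of members, 75.6% fell and 0% rose, against 10.2% and 13.4% of all genes (23.5% called in either direction). At an unadjusted p under 0.05, 39 members were lower (16.6% of all genes) and 0 higher (18.8%), and DESeq2 called 37 lower (12.6%) and 0 higher (15.1%). All 45 fold changes were below 0 (52.7% of all genes), with a median of -0.58 on the log2 scale, against -0.03 over all genes. For 41 members every D3Dox_d4 library lay under every NoDox_d4 library (18.6% of all genes), the others being Rpa3, Rrm1, Ccne1 and Ccne2. It was higher in all for 0 members (22% of all genes). Without the NoDox libraries numbered 1, 39 fell (86.7%, against 17.9% of all genes). All 34 calls were kept in every alternative except those of Gins3, Mcm10, Rfc4, Pole2, Fen1, Rpa2 and Tk1. Gins3 was lost with no filter and Fen1 without D3Dox_d4 replicate 3. Rpa2, Rfc4 and Tk1 were lost without D3Dox_d4 replicate 2 or 3, and Pole2 without D3Dox_d4 replicate 1 or 2. Mcm10 was lost when any D3Dox_d4 library was left out. Omitting a NoDox_d4 library also ended the call of Mcm10 (replicate 1), Tk1 (1 or 2), Rfc4 and Pole2 (2 or 3). Neuron markers moved with the fall on day 4 (13 of 14 rose), and their part was not tested.

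All 6 MCM genes fell on day 4, with log2 fold changes from -0.95 (Mcm5) to -0.58 (Mcm2). Mcm5 had 175, 178 and 175 CPM in D3Dox_d4, against 398, 326 and 298 CPM in NoDox_d4. Its treated libraries lay within 4 CPM of each other and far under the untreated ones, at 51.7% of their mean, and the change was -0.95 ± 0.11 in log2 units (SE, adjusted p = 8.89e-05 by edgeR). The CPM ratio of Mcm5 to Mcm6 was 0.570, 0.580 and 0.579 in D3Dox_d4, against 0.811, 0.673 and 0.606 in NoDox_d4. It was not lower with doxycycline on day 2, at 0.7905, 0.7935 and 0.7979 in D1Dox_d2, against 0.801, 0.660 and 0.656 in NoDox_d2, which overlapped. Cdc6 (-0.77), Orc1 (-0.68), the subunit of the origin complex that varies over the cell cycle, and Orc6 (-0.47) fell. Orc2 (-0.36 ± 0.13, adjusted p = 0.0572) and Cdt1 (-0.33 ± 0.14, adjusted p = 0.11) did not pass.

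Helicase activation genes fell in 5 of 7 cases on day 4 (71.4%, against 10.2% of all genes). Gins1 had 27.4, 22.4 and 22.2 CPM in D3Dox_d4, against 45.1, 39.5 and 40.7 CPM in NoDox_d4. Its groups were apart and its mean was 57.5% of that in NoDox_d4, with a log2 fold change of -0.80 ± 0.13 (edgeR adjusted p = 0.00143). Gins2 (-0.69), Gins3 (-0.47), Ticrr (-0.75) and Mcm10 (-0.42), a factor that helps the helicase leave the origin, also fell. Cdc45 (-0.30) and Gins4 (-0.40) did not pass.

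Rfc5, a small subunit of the clamp loader, had 73.3, 61.8 and 65.2 CPM in D3Dox_d4, against 103, 95.1 and 94.3 CPM in NoDox_d4. No libraries overlapped, and its log2 fold change was -0.55 ± 0.087 (edgeR adjusted p = 0.00102). Pcna (-0.70), the clamp itself, Rfc2 (-0.52), Rfc3 (-0.63) and Rfc4 (-0.81) fell as well. Rfc1, the large subunit, was at -0.15 ± 0.09 and did not pass on either day. Prim2, the regulatory subunit of primase, had 32.1, 31.1 and 34.3 CPM in D3Dox_d4, against 57.3, 55.5 and 51.0 CPM in NoDox_d4. It was apart between groups and fell (-0.75 ± 0.10, adjusted p = 2.42e-04). Of the other polymerase genes, Pole (-0.95), Pold1 (-0.86), Pola1 (-0.83), Prim1 (-0.76), Pola2 (-0.55) and Pole2 (-0.47) fell, and Pold2 (-0.42 ± 0.26) did not pass.

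Tyms, which makes thymidylate, had 50.0, 41.5 and 44.9 CPM in D3Dox_d4, against 108, 89.8 and 77.9 CPM in NoDox_d4. No treated library reached an untreated one, the mean was 49.4% of that in NoDox_d4, and the log2 fold change was -1.02 ± 0.17 (edgeR adjusted p = 0.00114), the lowest of the 45. Rrm2 (-0.55) and Tk1 (-0.40) fell, but Rrm1 had 408, 374 and 395 CPM in D3Dox_d4, against 469.9, 374 and 342 CPM in NoDox_d4. Its groups overlapped (-0.011 ± 0.11, adjusted p = 0.958). The CPM ratio of Rrm2, the subunit known to be made and destroyed with S phase, to Rrm1 was 0.670, 0.596 and 0.591 in D3Dox_d4, against 0.857, 0.890 and 0.971 in NoDox_d4. On day 2 that ratio was 0.934, 0.884 and 0.804 in D1Dox_d2, against 0.880, 0.823 and 0.835 in NoDox_d2, and overlapped. Chaf1a, the large subunit of CAF-1, had 69.2, 79.8 and 75.6 CPM in D3Dox_d4, against 144, 105 and 117 CPM in NoDox_d4. With no overlap, it fell (-0.70 ± 0.12, adjusted p = 0.00122), beside Chaf1b (-0.74), Fen1 (-0.88), Lig1 (-0.57) and Rpa2 (-0.58). Rpa1 (-0.35), Rpa3 (-0.30), Ccne1 (-0.21) and Ccne2 (-0.27) did not pass. Both cyclin E genes were thus uncalled on both days.

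**Figure D3:**
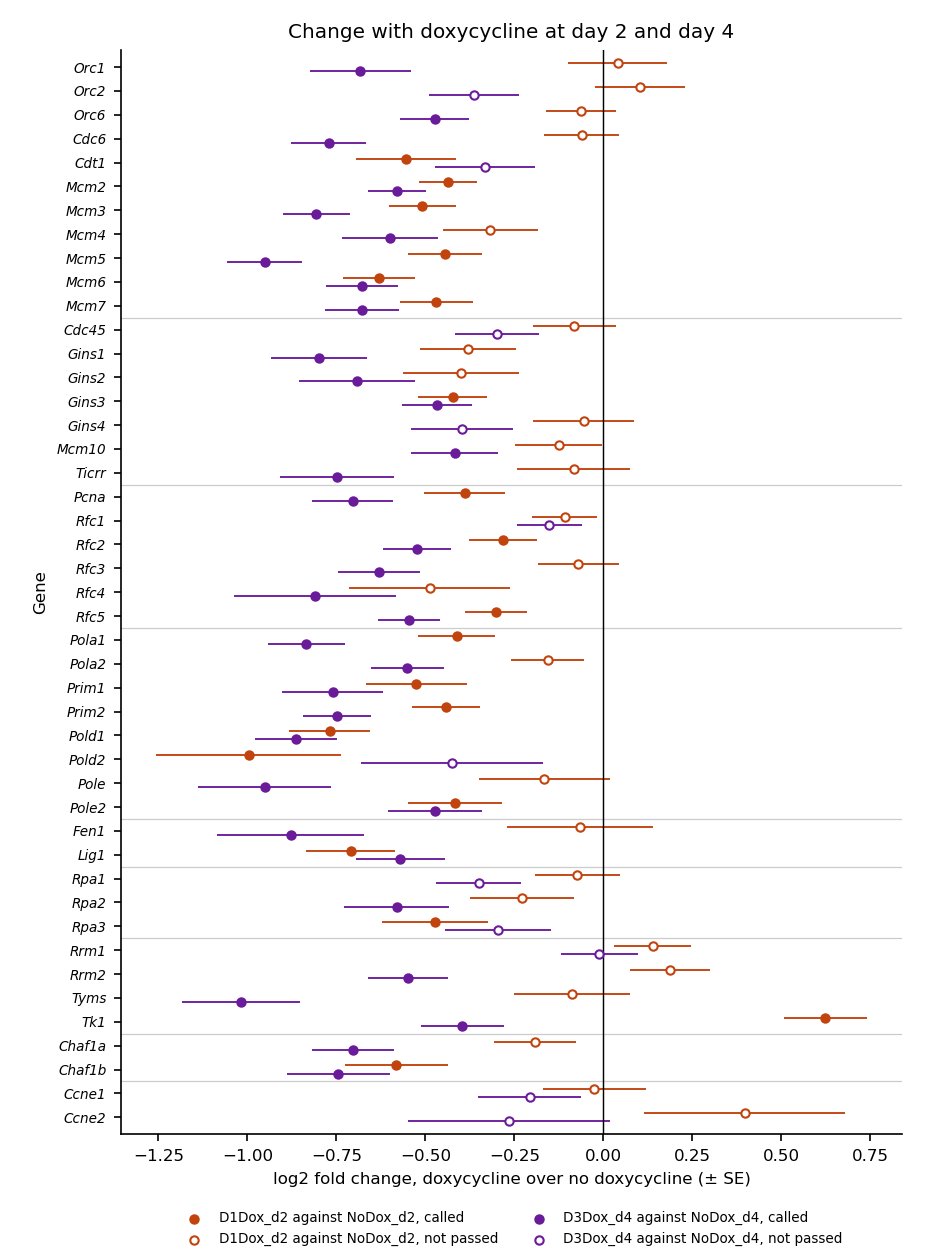
Log2 fold change (horizontal axis, ± SE) of each member in D1Dox_d2 against NoDox_d2 (orange) and D3Dox_d4 against NoDox_d4 (purple), with filled points for genes past an adjusted p of 0.05. On day 4 all 45 points lie left of 0, and on day 2 Tk1 is the filled point on the right.

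Across both days, 16 members fell in both comparisons: Mcm2, Mcm3, Mcm5, Mcm6, Mcm7, Gins3, Pcna, Rfc2, Rfc5, Pola1, Prim1, Prim2, Pold1, Pole2, Lig1 and Chaf1b. Of all genes, 13.4% fell on day 2 and 10.2% on day 4. The shares of all genes that fell on both days, or on 1 day alone, were not counted. Another 18 members fell with a call on day 4 alone, and Cdt1, Pold2 and Rpa3 fell with a call on day 2 alone. Without the NoDox libraries numbered 1, these 3 were called on day 4 too (Cdt1 -0.41, Pold2 -0.52 and Rpa3 -0.39). Of the 18, Mcm4 (-0.30), Gins1 (-0.50), Gins2 (-0.58), Rfc4 (-0.69) and Pola2 (-0.26) were then called on day 2 too. Whether the change itself differed between days was tested as the day 4 fold change minus the day 2 fold change. It was lower on day 4 for 7 members and higher for 0, against 6.24% lower and 6.66% higher of all genes, and 38 did not pass (12.9% of all genes were called in either direction). At an unadjusted p under 0.05 it was lower for 18 (14.3% of all genes) and higher for 0 (15.9%), and DESeq2 called 13 (9.16%) and 0 (9.74%). The median difference was -0.30, against 0.00 over all genes. The count was 3 or 4 when any D1Dox_d2 library, NoDox_d2 replicate 2 or 3, or D3Dox_d4 replicate 2 or 3 was left out. Without the NoDox libraries numbered 1 it was 12 (26.7%, against 15.8% of all genes), with 2 higher (18.7% of all genes), Cdt1 and Pold2.

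Tk1 differed most of the 7, by -1.02 ± 0.16 (SE, adjusted p = 0.0033 by edgeR). On day 4 it had 43.2, 34.6 and 35.3 CPM in D3Dox_d4, against 50.5, 51.8 and 46.3 CPM in NoDox_d4. Doxycycline libraries were thus above untreated ones on day 2 and below them on day 4. Cdc6 had 82.1, 85.8 and 78.2 CPM in D1Dox_d2, against 83.7, 85.5 and 87.4 CPM in NoDox_d2, values that overlapped. On day 4 it had 45.1, 43.7 and 45.8 CPM in D3Dox_d4, against 89.4, 65.8 and 74.7 CPM in NoDox_d4, with no overlap, and the difference was -0.71 ± 0.15 (adjusted p = 0.0117). Rfc3, a clamp loader subunit, had 83.1, 85.1 and 72.4 CPM in D1Dox_d2, against 87.7, 78.0 and 87.0 CPM in NoDox_d2, which overlapped. It had 62.8, 52.8 and 51.9 CPM in D3Dox_d4, against 96.9, 84.5 and 77.7 CPM in NoDox_d4, which did not, and the difference was -0.56 ± 0.16 (adjusted p = 0.0428), lost in 10 of 20 alternatives, among them leaving out any D1Dox_d2 library, NoDox_d2 replicate 2 or 3, D3Dox_d4 replicate 2 or 3 or NoDox_d4 replicate 1 or 2. Tk1, Cdc6 and Rrm2 (-0.74 ± 0.16) kept the call in all 20. Tyms (-0.93), Orc1 (-0.72) and Mcm5 (-0.51) lost it in 6, 9 and 12 of them. All 3 were lost without D1Dox_d2 replicate 1 or 2, NoDox_d2 replicate 2 or 3, or D3Dox_d4 replicate 2 or 3. Orc1 and Mcm5 were also lost without D1Dox_d2 replicate 3 or D3Dox_d4 replicate 1, and Mcm5 without NoDox_d4 replicate 1 or 2.

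**Figure D4:**
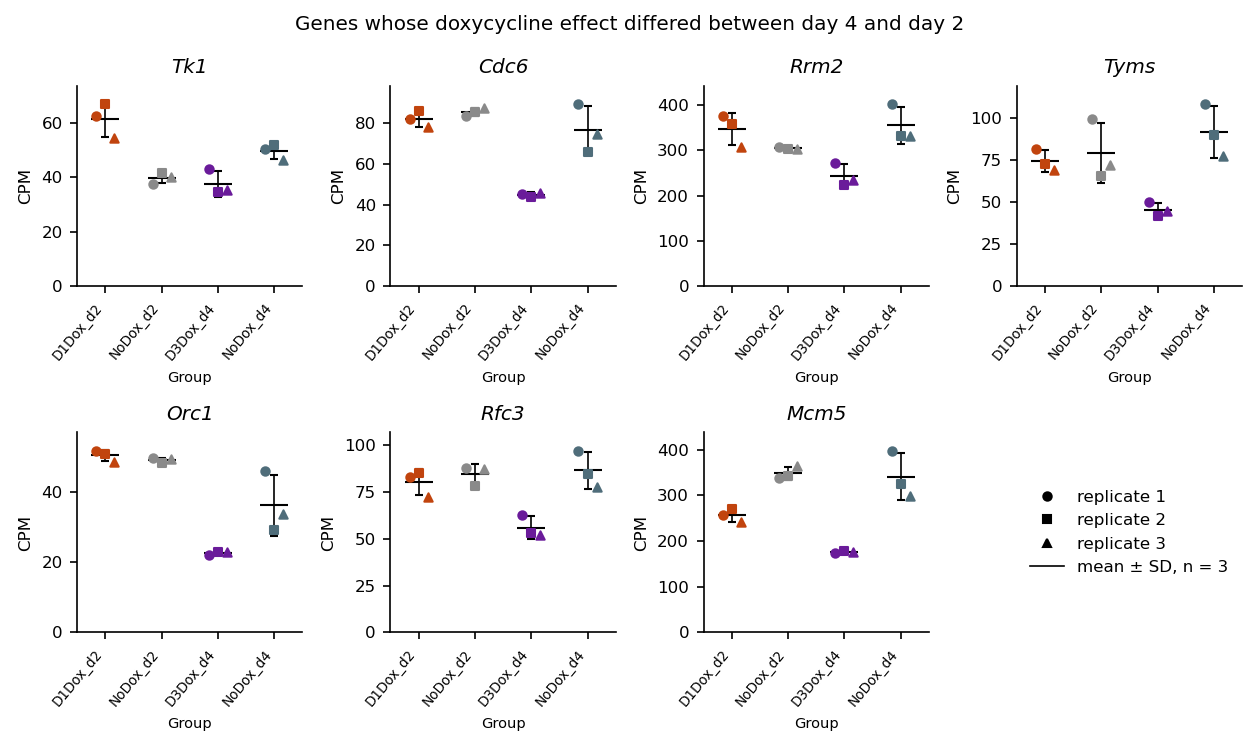
CPM in each library (points, with mean ± SD of 3) of the 7 genes whose doxycycline effect differed between days. Tk1 is highest in D1Dox_d2, and all 7 genes have their lowest mean in D3Dox_d4.

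With all libraries, few members changed over time without doxycycline. In NoDox_d4 relative to NoDox_d2, 1 fell, 1 rose and 43 did not pass, and the median was 0.01. Of all genes, 5.55% fell, 5.09% rose and 10.6% were called in all. Groups did not overlap, with NoDox_d4 higher, for 4 members (11.5% of all genes) and, with NoDox_d4 lower, for 2 (11.7%). Lig1 had 247, 199 and 196 CPM in NoDox_d4, against 359, 264 and 300.2 CPM in NoDox_d2. It was lower on day 4 (-0.53 ± 0.12, edgeR adjusted p = 0.0207), with no overlap. Pola1 had 98.6, 97.05 and 101 CPM in NoDox_d4, against 63.8, 85.1 and 79.5 CPM in NoDox_d2. It rose (0.38 ± 0.11, adjusted p = 0.0452), again with no overlap. Lig1 was lost without NoDox_d4 replicate 2 or 3, and Pola1 under 13 of 21 alternatives, among them leaving out NoDox_d2 replicate 1 (or 3), NoDox_d4 replicate 2 (or 3) or any doxycycline library. Without both NoDox libraries numbered 1, 7 fell (15.6%, against 11% of all genes in that fit) and 2 rose (4.44%, against 13.4%). The genes gained then were Orc1 (-0.63), Mcm10 (-0.58), Ccne1 (-0.46), Mcm4 (-0.45), Pold1 (-0.31) and Cdc6 (-0.30), and, higher on day 4, Ccne2 (0.58). The count of fallen members was 5 without NoDox_d4 replicate 1 alone.

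Between the doxycycline groups, day and the number after the D changed together and cannot be told apart. These libraries also served the comparisons above, so the values are given beside them and not as separate support. In D3Dox_d4 relative to D1Dox_d2, 24 members fell (53.3%), 0 rose and 21 did not pass. Of all genes, 21.4% fell, 22.6% rose and 44% were called in all. Groups did not overlap, with D3Dox_d4 lower, for 30 members (32% of all genes) and, with D3Dox_d4 higher, for 2 (33.7%). At an unadjusted p under 0.05, 28 were lower (25.4% of all genes) and 1 higher (26.9%), and DESeq2 called 28 lower (23.7%) and 0 higher (23.2%). The count was 14 without D1Dox_d2 replicate 1 or 2, and 15 without D3Dox_d4 replicate 2 or 3. Without the NoDox libraries numbered 1 it was 31 (68.9%, against 30.1% of all genes), with 2 higher (31.7% of all genes), Cdt1 and Pold2. Orc1 had 22.1, 22.9 and 22.9 CPM in D3Dox_d4, against 51.9, 51.0 and 48.8 CPM in D1Dox_d2. The groups lay far apart, and the mean in D3Dox_d4 was 44.8% of that in D1Dox_d2, a log2 fold change of -1.16 ± 0.14 (edgeR adjusted p = 1.05e-04). Pole had 36.5, 53.7 and 56.6 CPM in D3Dox_d4, against 81.5, 95.03 and 91.5 CPM in D1Dox_d2. Its libraries did not overlap (-0.87 ± 0.19, adjusted p = 0.00343). Mcm10 had 74.9, 75.3 and 75.7 CPM in D3Dox_d4, against 117, 124 and 115 CPM in D1Dox_d2. It fell with no overlap (-0.66 ± 0.12, adjusted p = 0.00157), and Tk1 (-0.71), Rfc3 (-0.52) and Chaf1a (-0.51) also fell with no overlap. These 6 kept their calls in all 21 alternatives, as did Cdc6, Mcm3, Mcm4, Mcm5, Fen1, Rrm2 and Tyms. The other 11, Orc2, Orc6, Mcm7, Gins4, Ticrr, Rfc2, Rfc5, Pola2, Lig1, Rpa1 and Ccne1, each lost the call when at least 1 D1Dox_d2 library or 1 D3Dox_d4 library was left out.

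Other genes of the same pathways were taken from lists made by function. Of all genes, 10.2% fell and 13.4% rose on day 4, and 13.4% fell and 14.9% rose on day 2. Of the further replication genes, 64.5% fell and 3.23% rose on day 4, and 29% fell on day 2. Of the further nucleotide synthesis genes, 56.5% fell on day 4 and 43.5% on day 2. Of 31 further replication genes, 20 fell and 1 rose on day 4 (median -0.49), and 9 fell on day 2 (median -0.22) while the rest did not pass. Pold3, a further polymerase delta subunit, fell on both days (-0.74 on day 4, -0.76 on day 2). Mcm8, an MCM relative outside the ring, fell on day 2 (-0.86), and Topbp1, a partner of Ticrr, on day 4 (-0.65). Pold4, the smallest polymerase delta subunit, was the gene that rose, with 8.13, 6.31 and 6.92 CPM in D3Dox_d4, against 3.16, 3.98 and 3.61 CPM in NoDox_d4 (0.99 ± 0.24, edgeR adjusted p = 0.0113). Its groups did not overlap, though its level was low. Of 23 further nucleotide synthesis genes, 13 fell on day 4 and 10 on day 2, and the rest did not pass. Shmt1, an enzyme of the folate cycle, fell on both (-0.92 on day 4, -0.56 on day 2), and Ctps, CTP synthase, fell on day 2 (-0.59).

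Among 13 E2F and pocket protein genes, 7 fell and 1 rose on day 4 (53.8% and 7.69%). On day 2, 3 fell and 2 rose (23.1% and 15.4%). Of all genes, 10.2% fell and 13.4% rose on day 4, and 13.4% fell and 14.9% rose on day 2. E2f8, an E2F family repressor that is itself made with S phase genes, rose on day 2 (0.62 ± 0.14, edgeR adjusted p = 0.0061) and fell on day 4 (-0.96 ± 0.14, adjusted p = 5.25e-04), a difference of -1.58. It had 31.7, 32.1 and 34.0 CPM in D1Dox_d2, against 21.2, 22.8 and 19.6 CPM in NoDox_d2, and 12.8, 15.1 and 14.05 CPM in D3Dox_d4, against 24.7, 23.9 and 32.7 CPM in NoDox_d4, so it was above its untreated group on day 2 and below it on day 4, as Tk1 was. Rbl2, the pocket protein p130, which accumulates in resting cells, rose on both days (0.84 on day 4, 1.13 on day 2), the day 4 call being lost without D3Dox_d4 replicate 2 or 3 or NoDox_d4 replicate 1. Tfdp1, a partner that E2F needs to bind DNA, fell on day 4 (-0.50), and Tfdp2 (-0.90) and E2f5 (-0.66) fell on day 2. Of 8 genes for G1 and S cyclins, their kinases and Cdc25a, 3 fell on day 4, with Ccnd1 (-0.63) and Ccnd2 (-0.44), cyclins D, among them. On day 2 Ccna2 rose (0.49), beside Tk1, and Ccnd2 fell (-0.53). Of this list, 37.5% thus fell on day 4. On day 2, 12.5% fell and 12.5% rose, near the shares of all genes. Of 7 Cdk inhibitors, 3 rose on day 4, among them Cdkn1c (1.17), which encodes p57, and Cdkn2d (1.00), and the other 4 did not pass. On day 2, 4 rose and 1 fell. Of the inhibitors, 42.9% thus rose on day 4, and 57.1% rose and 14.3% fell on day 2. Cdkn2a (2.36) and Cdkn2d (0.80) were higher on day 2 and Cdkn1c lower (-0.80, or -0.53 without the NoDox libraries numbered 1). Cdkn2a had only 6.52, 6.63 and 6.84 CPM in D1Dox_d2, against 2.90, 0.553 and 0.409 CPM in NoDox_d2. Its log2 fold change was 3.78 without the NoDox libraries numbered 1, and its call was lost without NoDox_d2 replicate 2. Cdkn1c had 414, 305 and 333 CPM in D3Dox_d4, against 164, 158 and 145 CPM in NoDox_d4, the highest values of any group being those of D3Dox_d4. Exons of Cdkn1c, Ccnd1, Rbl2, Ccna2 and E2f8 lie in part opposite another gene (11.2% to 30.7% of bases), which makes their levels uncertain too.

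Some of these genes also changed with time without doxycycline. In NoDox_d4 relative to NoDox_d2, the cyclin D genes Ccnd1 (0.84) and Ccnd2 (0.73) rose, as did E2f2 (0.81) and the replication gene Pole3 (0.41). Ccnd3, also a cyclin D gene, fell (-0.39), and Cdkn2c, a Cdk inhibitor gene, rose (2.15). The calls of Ccnd3 and Cdkn2c were lost in 1 and 6 of 21 alternatives. Mthfd1, a folate cycle enzyme, fell (-0.94), as did Cdkn1a (-1.21), which encodes the Cdk inhibitor p21. Cdkn1a had 58.8, 97.05 and 79.5 CPM in NoDox_d4, against 292, 129 and 124 CPM in NoDox_d2, and its log2 fold change was -0.52 without the libraries numbered 1. Its call was lost without NoDox_d4 replicate 3, and that of Pole3 in 11 of 21 alternatives, among them leaving out any D1Dox_d2 library, NoDox_d2 replicate 2 or 3, D3Dox_d4 replicate 2 or 3 or NoDox_d4 replicate 1 or 2. In D3Dox_d4 relative to D1Dox_d2, 11 of 31 further replication genes fell and 2 rose, and 10 of 23 further nucleotide synthesis genes fell and 3 rose. These are 35.5% and 6.45% of the replication list and 43.5% and 13% of the nucleotide list, beside 21.4% and 22.6% of all genes. Of the Cdk inhibitors, 42.9% rose there and 28.6% fell. Cdkn1c (2.47) and Cdkn1b (1.35) were higher, and Cdkn2a (-4.28) and Cdkn2b (-4.25) lower. Of the E2F and pocket protein genes, 38.5% rose and 23.1% fell. Tfdp2 (1.22) and E2f2 (0.88) were higher, and E2f8 (-1.22) and E2f7 (-1.18) lower.

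Genes of G2 and mitosis fell more often on day 4 than on day 2. Of 18, 13 fell then and 5 did not pass, with Mki67 (-1.09), the proliferation marker, and Cenpe (-0.68), a kinetochore motor, among them. On day 2, 3 fell, among them Top2a (-0.35) and Ccnb2 (-0.41), and Plk1 rose (0.37). Of this list, 72.2% thus fell on day 4, and 16.7% fell and 5.56% rose on day 2. Of all genes, 10.2% fell on day 4, and 13.4% fell and 14.9% rose on day 2. Calls on day 2 were lost for Ccnb2 and Top2a without D1Dox_d2 replicate 3, for Ccnb2 also without NoDox_d2 replicate 2 or 3, and for Plk1 in 9 of 21 alternatives, among them leaving out any D1Dox_d2 library, NoDox_d2 replicate 1 or 2, or D3Dox_d4 replicate 2 or 3. The difference between days was lower for 5 of the 18 (27.8%, against 6.24% of all genes) and not called for the rest. For Plk1, a mitotic kinase, it was -1.06 ± 0.17 (edgeR adjusted p = 0.00319). Their summed level on day 2 was 3479.7, 3656 and 3381 CPM in D1Dox_d2, against 3373, 3687 and 3692 CPM in NoDox_d2, and the groups overlapped. On day 4 it was 2316, 2509.9 and 2496 CPM in D3Dox_d4, against 3898, 3339 and 3483 CPM in NoDox_d4, with no overlap. The mean sum in doxycycline was 97.8% of that without it on day 2 and 68.3% on day 4, beside 81.7% and 67.4% for the 45 members.

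Markers of other cell types moved with these results. Of all genes, 10.2% fell and 13.4% rose on day 4, and 13.4% fell and 14.9% rose on day 2. Of neuron markers, 92.9% rose on day 4 and 21.4% on day 2, and of fibroblast markers 23.1% and 76.9%. Of mesoderm markers tested, 42.9% fell on day 4 and 57.1% on day 2. On each day 37.5% of endoderm markers rose and 25% fell, and 41.7% of epiblast markers fell. Of 14 markers of postmitotic neurons, 13 rose on day 4, at a summed level of 2292, 2053 and 2291 CPM in D3Dox_d4, against 241, 739 and 655 CPM in NoDox_d4. The remaining marker, Nefm, was under 0.3 CPM on average in both groups. On day 2, 3 of the 14 rose, at 621, 504 and 531 CPM in D1Dox_d2, against 339, 486 and 448 CPM in NoDox_d2. Of 13 fibroblast markers, 10 rose on day 2, at 2078, 2098 and 2535 CPM in D1Dox_d2, against 544, 429 and 422 CPM in NoDox_d2, and on day 4, 3 rose and 3 fell, at 604, 674 and 717 CPM in D3Dox_d4, against 797, 290.2 and 299.8 CPM in NoDox_d4. Of 8 mesoderm markers, 7 were tested, of which 4 fell and 1 rose on day 2. The sum over all 8 was 75.4, 79.4 and 83.9 CPM in D1Dox_d2, against 1352, 128 and 172 CPM in NoDox_d2, so NoDox_d2 replicate 1 again stood apart. On day 4 that sum was 38.6, 56.0 and 44.1 CPM in D3Dox_d4, against 393, 169 and 130.0 CPM in NoDox_d4, and 3 of the markers fell. Of 8 endoderm markers, 3 rose and 2 fell on each day, with sums of 292, 268 and 251 CPM in D1Dox_d2, against 222, 262 and 352 CPM in NoDox_d2, and 297, 287 and 293 CPM in D3Dox_d4, against 164, 321 and 255 CPM in NoDox_d4. Of the 12 epiblast markers, 5 fell on each day and 1 rose on day 4. No marker of these lists was at 0 in all libraries of a group, the lowest mean being that of Msgn1, a mesoderm factor, at 0.0366 CPM in D3Dox_d4. The part of these cell types in the change of replication genes was not tested.

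**Figure D5:**
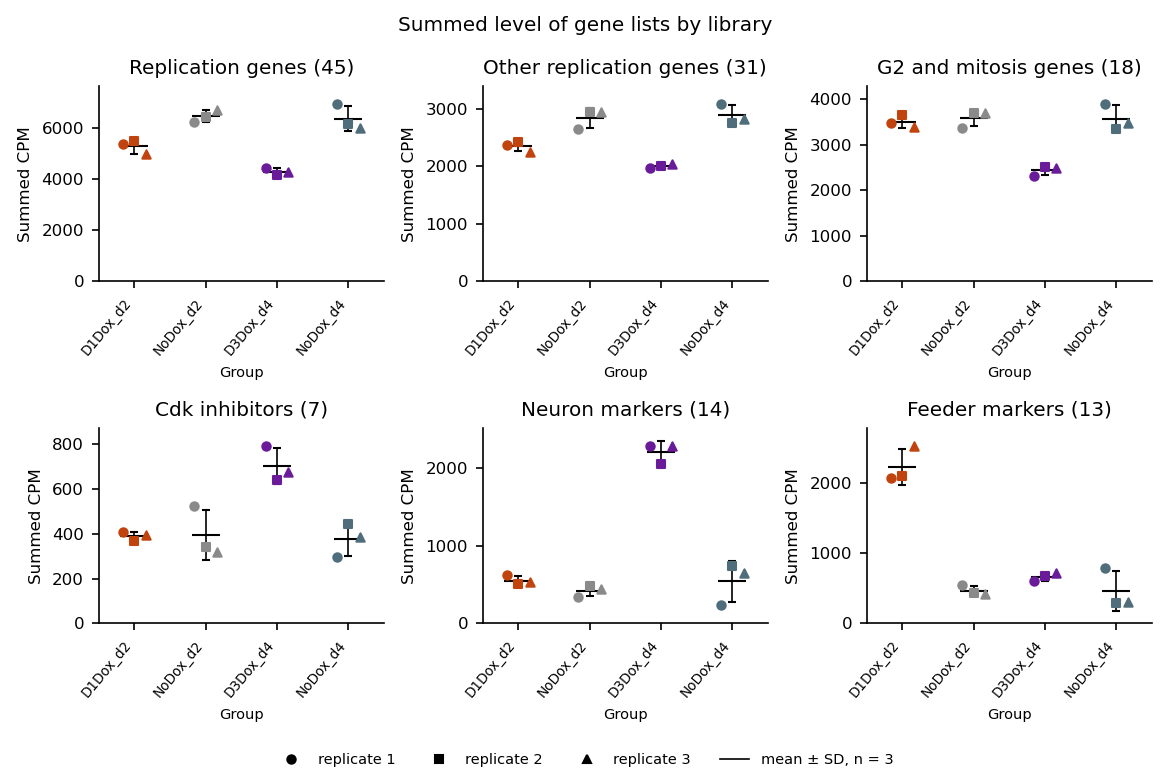
Summed CPM (vertical axis) of 6 gene lists in each library, with bars for mean ± SD of 3. Replication genes are lower with doxycycline on both days, G2 and mitosis genes on day 4, neuron markers are highest in D3Dox_d4 and fibroblast (feeder) markers in D1Dox_d2.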

How the data were processed

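RNA-seq counts of 12 libraries in 4 groups of 3 were used, grouped by their titles. The authors deposited unnormalized counts of read pairs (1 value per gene and library), which featureCounts 2.0.1 made with GENCODE vM25 gene models and without a strand option, per the file headers. Per the labels' protocols, 150 bp paired reads were trimmed with Trim Galore to at least 50 bp. STAR and DESeq2, and the builds GRCm38 and mm10, are named in the submitters' processing notes. Symbols were matched for 55141 of 55487 genes.

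From the counts, genes were tested with the edgeR 4.0.16 quasi-likelihood test (limma 3.58.1, R 4.3.3), with TMM, filterByExpr and 1 coefficient per group over all 12 libraries (8 residual degrees of freedom). Calls had a Benjamini-Hochberg adjusted p under 0.05 over 18109 genes. The fit was tested on simulated data. Alternatives were other scalings and filters, DESeq2 1.42.0, robust moderation, a replicate block, fitting only the libraries compared, and leaving out libraries. Values in every library are given for the called member with the lowest adjusted p of each role, up to 6 a comparison, and 2 genes per direction are named from the other lists. Other members named were chosen after their values were seen. Members and lists were chosen with earlier results of these data known, so no set test was made. Same-numbered NoDox libraries deviated together across genes (r = 0.545, 0.361 and 0.308). NoDox_d2 replicate 2 went as much with NoDox_d4 replicate 3 (r = 0.416), and NoDox_d2 replicate 3 with NoDox_d4 replicate 2 (r = 0.325). Only the NoDox libraries numbered 1 thus stood out as a pair, and the labels give no reason. Other groups were not paired. Depth, given with the results, sets counting error, which weighs most on genes with few counts.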

Additional observations from a re-analysis of the deposited data

Results flagged for a closer look

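For 7 members, a test of the difference itself found that the doxycycline effect on day 4 differed from that on day 2 (edgeR, adjusted p under 0.05). These were 15.6% of members, all lower on day 4. Of all genes 6.24% were lower and 6.66% higher, 12.9% in either direction. Tyms, Orc1, Rfc3 and Mcm5 lost the call in 6, 9, 10 and 12 of 20 alternatives. The day 4 log2 fold change minus that of day 2 was -1.02 ± 0.16 for Tk1 (adjusted p = 0.0033) and -0.93 ± 0.23 for Tyms (adjusted p = 0.0242), both of thymidylate supply. It was -0.74 ± 0.16 for Rrm2 (adjusted p = 0.0137). Among licensing genes it was -0.72 ± 0.20 for Orc1 (adjusted p = 0.0343), -0.71 ± 0.15 for Cdc6 (adjusted p = 0.0117) and -0.51 ± 0.15 for Mcm5 (adjusted p = 0.0443). For Rfc3 of the clamp loader it was -0.56 ± 0.16 (adjusted p = 0.0428). All 3 nucleotide synthesis genes among them were lower with doxycycline on day 4, and Tk1 was higher on day 2. Neuron markers were also highest in D3Dox_d4 and fibroblast markers in D1Dox_d2, and their part in these differences was not tested.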

How the results depend on the processing

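No result changed direction past the threshold. Leaving out 1 library moved the counts over all genes as well. On day 4, 1031 to 2458 of all genes then fell (1839 with all libraries), and on day 2 1197 to 3650 (2431). The difference was lower for 592 to 2374 (1130). Without doxycycline 537 to 1506 fell over time (1005), and between doxycycline groups 2937 to 4609 (3869). For day 4, leaving out each library gave 29 to 38 fallen members, against 34 with all. On day 2 it gave 9 to 23 fallen and 1 to 2 risen, for the difference between days 3 to 10 lower and 0 to 2 higher, for NoDox_d4 against NoDox_d2 0 to 5 fallen and 0 to 1 risen, and for D3Dox_d4 against D1Dox_d2 14 to 26 fallen and 0 to 1 risen. Without both NoDox libraries numbered 1, 2 members rose on day 2, the difference was lower for 12 and higher for 2, 7 fell and 2 rose over time without doxycycline, and 2 rose between doxycycline groups; no call was lost there. DESeq2 gave 13 lower differences and 2 members fallen over time without doxycycline. Over that time 0 rose with upper-quartile scaling, with no filter and with only the libraries compared, and 0 fell with the last. Between doxycycline groups 1 rose with no filter and 1 with only the libraries compared. The cause was not tested. Calls kept in every alternative were 9 of 20 (day 2), 27 of 34 (day 4), 3 of 7 (difference), 0 of 2 (no doxycycline) and 13 of 24 (doxycycline groups). With the replicate number as a block, 18 fell and 1 rose on day 2, 36 fell on day 4, the difference was lower for 6, 1 fell and 1 rose without doxycycline, and 27 fell between doxycycline groups. The block changed no call over time without doxycycline; in the other comparisons deviations of same-numbered libraries did not go together throughout (r = -0.105, -0.0334 and -0.125 between D1Dox_d2 and NoDox_d2). Sums of the members moved by less than 1 SD with other scalings. Fen1 had the lowest CPM of the members, so counting error weighs most on it.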

Other observations

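The NoDox libraries numbered 1 differed from their own groups in single members, in some in the same sense on both days and in others in opposite senses. Ccne2, a cyclin E gene, was at 40.7, 26.9 and 26.6 CPM in NoDox_d4 and at 39.9, 17.1 and 18.8 CPM in NoDox_d2, replicate 1 being the highest each time. Pold2 was at 62.9, 82.9 and 72.9 CPM in NoDox_d4 and at 36.2, 85.5 and 87.5 CPM in NoDox_d2, and Rfc4 at 59.5, 92.1 and 86.7 CPM in NoDox_d4 and at 43.9, 69.0 and 74.7 CPM in NoDox_d2, replicate 1 being the lowest each time. Tyms was at 108, 89.8 and 77.9 CPM in NoDox_d4 and at 99.7, 65.9 and 72.3 CPM in NoDox_d2, with replicate 1 highest. These members were chosen after their values were seen. In the doxycycline groups, Ccne2 was at 33.1, 32.9 and 33.9 CPM in D1Dox_d2 and at 29.9, 24.96 and 23.4 CPM in D3Dox_d4.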
